A study of Rattus norvegicus with 12 samples.

Results

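The 6 lungs of rats infused with a peptide ligand of the angiotensin II type 1 receptor (AT1R), 3 with AngII and 3 with TRV023, were compared as a single pool with the 6 lungs of rats given PBS vehicle or losartan, 3 each, so that all 12 libraries of the series entered a comparison of 6 against 6. Members were chosen by treatment alone. Genes were taken from the 3 deposited tables, 1 per drug, and the 16957 genes listed in all 3 were kept of 19687 listed in any. All 12 rats were 9 weeks old and carried monocrotaline (MCT) pulmonary hypertension, given as a single MCT injection at 60 mg/kg, so no lung here was free of MCT injury. AngII was infused at 1 mg/kg/day, TRV023 at 10 µg/kg/min and losartan at 10 mg/kg/day, and the controls received PBS. The study's chronic infusion protocol used male Sprague-Dawley rats, an outbred stock. Each library was 1 rat, and total RNA came from about 10 mg of whole lung, which mixes all cell types of the organ, so fewer cells of a type and less RNA per cell cannot be told apart in any value below.

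AT1R is a G protein-coupled receptor that contracts vascular smooth muscle through Gq and calcium. Its β-arrestins uncouple it from G proteins, carry it into the cell and start signaling of their own, for example to ERK. AngII, the natural peptide, engages both arms. TRV023 is a synthetic analog with sarcosine at the amino end and alanine at the carboxyl end, built to recruit β-arrestin without activating G proteins. Losartan, a small molecule, blocks both arms. The pooled comparison therefore asks which lung transcripts separated rats given either β-arrestin-engaging ligand from rats given none.

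A single gene was called in the pooled comparison, 0.00668% of the 14966 genes that passed the filter on low counts. A gene was called at a Benjamini-Hochberg adjusted p under 0.05 in edgeR's quasi-likelihood test, a log2 fold change is positive where the peptide lungs were higher, and FPKM are read counts scaled to gene length and library size. It was RGD1561306 (ENSRNOG00000033699), which rose with the peptides by a log2 fold change of 1.06 (SE 0.10, 95% interval 0.85 to 1.27, edgeR quasi-likelihood adjusted p = 0.000466). Its name is outside the rule for named genes, so it was chosen after its values were seen. RGD1561306 had 28.2, 28.01 and 27.3 FPKM in AngII lungs and 29.1, 34.8 and 33.0 FPKM in TRV023 lungs, against 15.3, 15.5 and 16.2 FPKM in vehicle lungs and 14.9, 14.8 and 12.7 FPKM in losartan lungs. The lowest peptide lung was far above the highest lung without a peptide, and the means were 30.1 ± 3.09 FPKM with a peptide and 14.9 ± 1.19 FPKM without (SD, n = 6 each). The counts behind these levels were 403 to 603 reads with a peptide and 213 to 280 reads without.

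Both peptides contributed to the RGD1561306 difference. In a fit with 4 group means the log2 fold change over vehicle and losartan was 1.03 for AngII and 1.10 for TRV023. Both passed the threshold (edgeR adjusted p = 0.0137 and 0.0128), with the vehicle and losartan lungs shared by both values. With 1 library left out, the AngII call held only without a TRV023 lung, Veh_963 or Los_964. The TRV023 call held only without an AngII lung, Veh_924, Veh_963, Los_964 or Los_965. AngII minus TRV023 was -0.07 (95% interval -0.38 to 0.24), and losartan minus vehicle was -0.10 (95% interval -0.41 to 0.22). The pooled call was lost at an adjusted p of 0.0559 without the TRV023 group and 0.0946 without the vehicle group, with the log2 fold change at 1.01 and 1.11.

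The deposited tables place RGD1561306 on chromosome 4, from 212473338 to 212823540 on the minus strand, as a protein-coding gene 350.2 kb long. The tables give no function for it, and its neighbors are named by position alone. Its interval encloses Klra7, a member of the Ly49 family of killer cell lectin-like receptors, and lies in a stretch that holds Klri1, Klrk1, Klrd1 and Klre1, which code for lectin-like receptors of natural killer cells. Ly49 genes are near-identical copies in rodents, and reads from overlapping or duplicated genes may have been split or assigned wrongly, so the identity of the transcript is uncertain. Klra7 had 3.45, 2.92 and 4.62 FPKM in AngII lungs and 2.55, 2.48 and 7.88 FPKM in TRV023 lungs, against 3.30, 0.90 and 2.04 FPKM in vehicle lungs and 3.77, 1.37 and 3.38 FPKM in losartan lungs. The Klra7 groups overlapped, with a log2 fold change of 0.75 (95% interval -0.09 to 1.60). Of the 9 other genes tested within 500 kb of RGD1561306, 8 had a log2 fold change above 0 and 0 had an unadjusted p under 0.05, with a median of 0.42. Klrd1, Klrk1, Klri1 and Klre1, expressed by natural killer cells, stood at log2 fold changes of 0.45, 0.16, 0.42 and 1.48. The 95% interval of Klre1 was wide, -0.42 to 3.39, at low levels. LOC502907, another neighbor, stood at 1.49 (95% interval -0.13 to 3.11). The values of Klre1 and LOC502907 were above that of RGD1561306, with overlapping groups. The 18 T and NK cell genes tested had a median of 0.20, with 0 of 18 at an unadjusted p under 0.05. The median was 0.42 for AngII and 0.004 for TRV023 over the same vehicle and losartan lungs. The summed level of the 18 genes was 179 to 290.1 CPM, counts scaled to library size, with a peptide and 137 to 267 CPM without. Any part of these cells in the RGD1561306 difference was not tested.

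**Figure D1:**
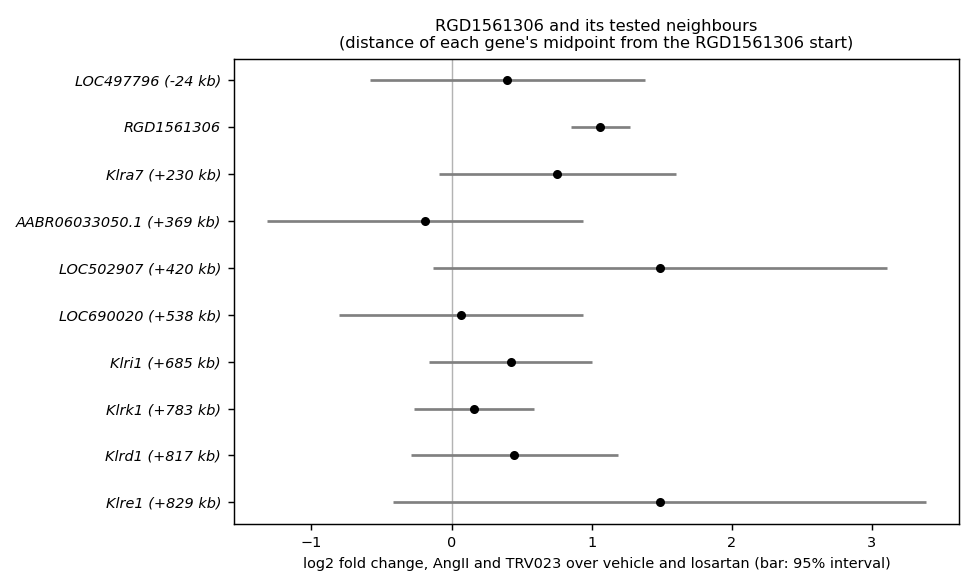
Log2 fold change (AngII and TRV023 over vehicle and losartan, x axis) of RGD1561306 and the 9 other genes tested within 500 kb of it, with 95% intervals as bars, in their order along the chromosome with distances from the RGD1561306 start. The interval of RGD1561306, 0.85 to 1.27, lies clear of 0, and the interval of each of the other 9 genes reaches 0.

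The next genes in order of p did not pass the threshold with edgeR. At an unadjusted p under 0.05, 586 genes were higher with the peptides (3.92% of those tested) and 530 lower (3.54%). With library totals in place of TMM scaling this split was 371 higher and 677 lower. In 44 genes the 6 peptide lungs all lay above the other 6 (0.294%), and in 22 all below (0.147%). DESeq2, run on the same counts, called 31 genes higher (0.195% of 15927) and 20 lower (0.126%). The 12 genes with the smallest p in each direction, described next, had edgeR adjusted p-values of 0.128 to 0.387, and all 24 were called by DESeq2. In 10 of the 12 higher genes and 5 of the 12 lower genes the 2 sets of 6 lungs did not overlap, and a choice by small p selects such genes.

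**Figure D2:**
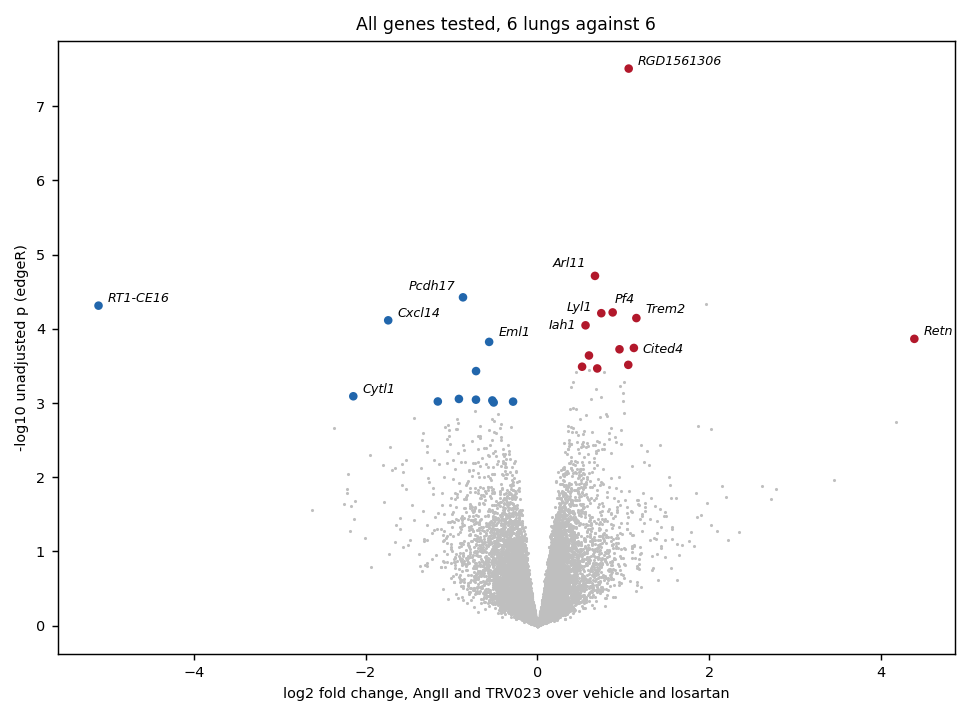
Log2 fold change (x axis) against -log10 of the unadjusted edgeR p (y axis) for the 14966 genes tested, with RGD1561306 and the 12 genes of smallest p in each direction in color (red higher, blue lower with the peptides). RGD1561306 stands alone at the top, and the other colored genes merge into the rest.

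Among the genes at higher levels with the peptides, several are known from macrophages. Trem2, a lipid-sensing receptor of macrophages, had 69.1, 129 and 73.2 FPKM in AngII lungs and 78.8, 73.7 and 86.0 FPKM in TRV023 lungs, against 50.6, 24.5 and 39.4 FPKM in vehicle lungs and 49.8, 44.8 and 31.3 FPKM in losartan lungs. All 6 peptide lungs exceeded the other 6, and the log2 fold change was 1.15 ± 0.21 (SE, edgeR adjusted p = 0.128). Arl11, a small GTPase of the ARF-like family, had 46.6, 49.1 and 40.7 FPKM in AngII lungs and 59.5, 50.4 and 44.7 FPKM in TRV023 lungs, against 36.5, 30.4 and 33.7 FPKM in vehicle lungs and 37.0, 27.8 and 24.9 FPKM in losartan lungs. Its groups did not overlap either, and the log2 fold change was 0.67 (SE 0.11).

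Pf4, the chemokine platelet factor 4, which platelets and some macrophages carry, had 195, 353 and 244 FPKM in AngII lungs and 389, 251 and 245 FPKM in TRV023 lungs, against 158, 174 and 161 FPKM in vehicle lungs and 168, 136 and 158 FPKM in losartan lungs. The log2 fold change was 0.87 pooled, 0.87 for AngII alone and 0.88 for TRV023 alone. Over the 14 platelet and megakaryocyte genes tested, Pf4 included, the pooled median was -0.01, with 0.53 for AngII and -0.58 for TRV023, and Pf4 was the only 1 of them at an unadjusted p under 0.05.

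Cd300a, an inhibitory receptor of myeloid cells, had 31.0, 42.8 and 32.4 FPKM in AngII lungs and 41.7, 46.8 and 36.0 FPKM in TRV023 lungs, against 24.7, 21.1 and 23.5 FPKM in vehicle lungs and 29.4, 15.2 and 10.5 FPKM in losartan lungs. The groups did not overlap, by a margin of under 2 FPKM between Ang2_922 and Los_925. Lyl1, a basic helix-loop-helix factor of blood cells, ranged from 26.3 to 33.1 FPKM with a peptide and from 13.1 to 23.0 FPKM without. Pltp, which transfers phospholipids between lipoproteins, ranged from 109 to 136 FPKM with a peptide and from 65.6 to 108 FPKM without. Unc93b1, which carries Toll-like receptors to endosomes, ranged from 69.8 to 90.1 FPKM with a peptide and from 48.7 to 68.0 FPKM without. Their log2 fold changes were 0.95 for Cd300a, 0.74 for Lyl1, 0.60 for Pltp and 0.52 for Unc93b1.

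Retn, which codes for the secreted protein resistin, had the largest log2 fold change of the 24 in the higher direction, 4.39, at low levels. It had 4.44, 21.3 and 11.8 FPKM in AngII lungs and 0.826, 8.36 and 15.2 FPKM in TRV023 lungs, against 0.0834, 0 and 1.91 FPKM in vehicle lungs and 0.252, 0.387 and 0.427 FPKM in losartan lungs. Trv_917 lay below Veh_963, so the groups overlapped. Retn is a fat cell gene in rodents, and Cfd, the complement factor D made by fat cells and macrophages, had 84.3 to 160 FPKM with a peptide and 36.4 to 83.3 FPKM without (log2 fold change 0.997, edgeR adjusted p = 0.387). Cited4, a transcription co-activator, Iah1, an esterase, Lppr3, a membrane protein of the lipid phosphate phosphatase-related family, and Ntng2, a netrin-related membrane protein, completed the 12, at log2 fold changes of 1.12, 0.56, 1.06 and 0.70.

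**Figure D3:**
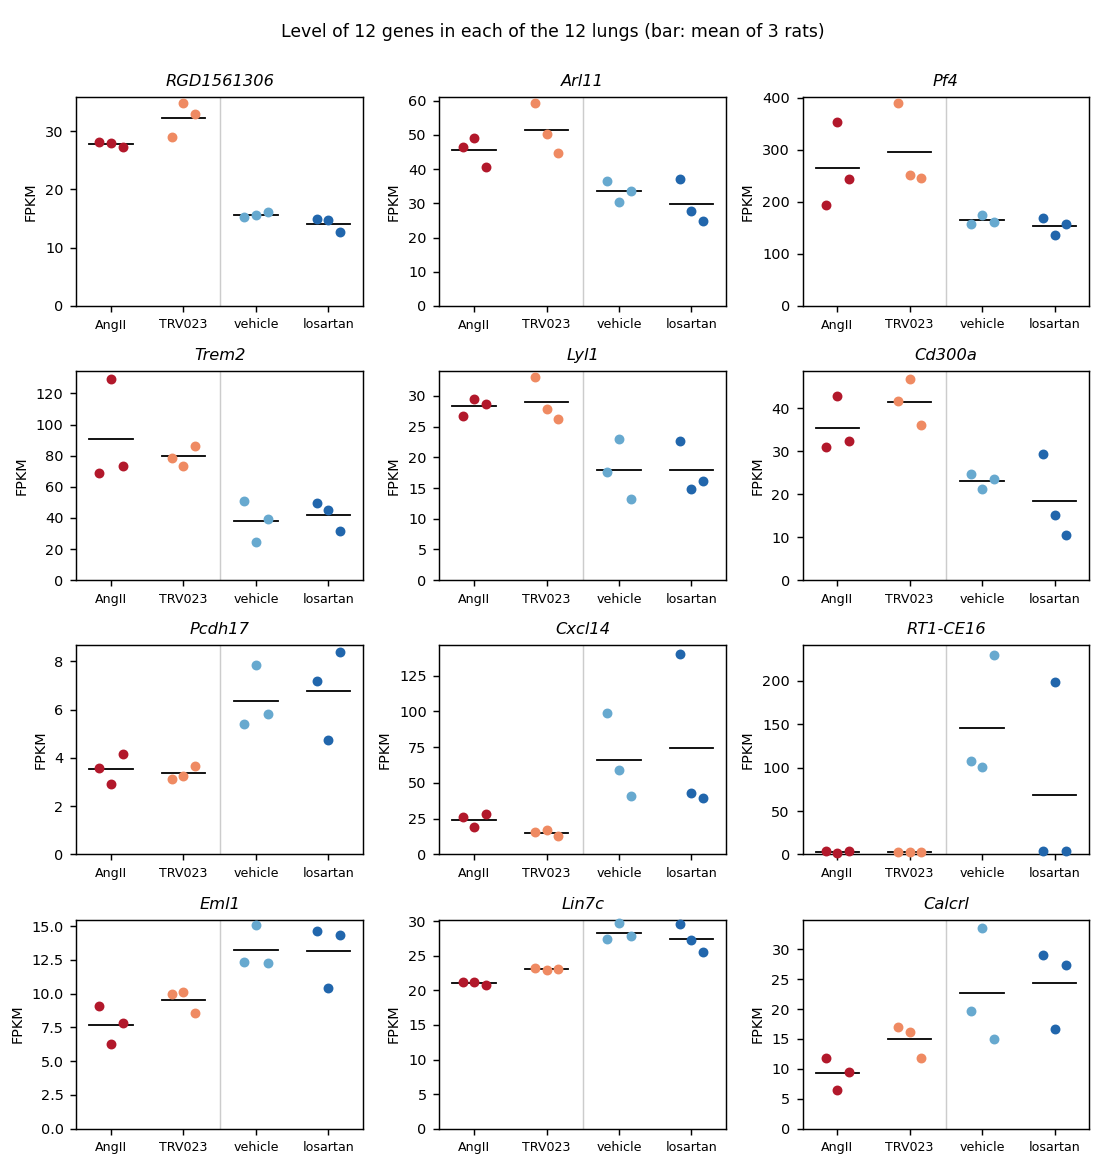
FPKM (linear y axes starting at 0) of RGD1561306 and 11 further genes in each of the 12 lungs, grouped as AngII, TRV023, vehicle and losartan, with a bar at the mean of 3 rats. The 6 peptide lungs sit above the others for the first 6 genes and below them for Pcdh17, Cxcl14, Eml1 and Lin7c. In RT1-CE16, 2 losartan lungs, at 3.76 and 3.73 FPKM, sit with the peptide lungs, and in Calcrl the groups overlap.

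Among the genes at lower levels with the peptides, the chemokine Cxcl14 had 25.9, 19.0 and 27.99 FPKM in AngII lungs and 15.98, 17.2 and 12.6 FPKM in TRV023 lungs, against 98.5, 59.0 and 40.7 FPKM in vehicle lungs and 140, 42.9 and 39.8 FPKM in losartan lungs. All 6 peptide lungs were below the other 6, with a log2 fold change of -1.74 ± 0.32 (SE, edgeR adjusted p = 0.128). Lungs without a peptide were far more spread than lungs with one. Without the 3 rats whose numbers begin with 96, all of them in the vehicle and losartan groups, Cxcl14 passed the threshold at a log2 fold change of -2.21 (edgeR adjusted p = 0.0359).

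Pcdh17, a protocadherin of cell adhesion, had 3.60, 2.93 and 4.16 FPKM in AngII lungs and 3.13, 3.27 and 3.68 FPKM in TRV023 lungs, against 5.41, 7.87 and 5.83 FPKM in vehicle lungs and 7.21, 4.75 and 8.40 FPKM in losartan lungs. The groups did not overlap, and the log2 fold change was -0.87 ± 0.15 (SE). Eml1, a microtubule-associated protein, ranged from 6.27 to 10.1 FPKM with a peptide and from 10.4 to 15.0 FPKM without. Lin7c, a scaffold of cell polarity, ranged from 20.7 to 23.2 FPKM with a peptide and from 25.5 to 29.8 FPKM without. It had the smallest change of the 24, a log2 fold change of -0.28, and still no overlap.

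RT1-CE16, a class I histocompatibility gene, had the largest log2 fold change in the lower direction, -5.11, and did not separate the 2 sets of lungs. It had 3.44, 2.13 and 3.89 FPKM in AngII lungs and 2.54, 3.21 and 3.09 FPKM in TRV023 lungs, against 108, 100 and 230 FPKM in vehicle lungs and 3.76, 198 and 3.73 FPKM in losartan lungs. Among lungs without a peptide, 2 of 3 in the losartan group were thus at the level of the peptide lungs. With Los_925 or Los_965 left out the gene passed the threshold (edgeR adjusted p = 0.0232 and 0.0288). Class I genes of the rat differ in number and sequence between animals and share reads, so this value is uncertain.

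Further genes at lower levels included some of vessels and lining cells. Calcrl, the calcitonin receptor-like receptor for adrenomedullin and CGRP on endothelium, ranged from 6.52 to 17.0 FPKM with a peptide and from 15.0 to 33.6 FPKM without. Il33, an alarmin of lung lining cells, ranged from 26.0 to 50.4 FPKM with a peptide and from 45.7 to 60.1 FPKM without. Ntn4, a netrin of basement membranes, ranged from 5.87 to 13.3 FPKM with a peptide and from 11.6 to 21.9 FPKM without. Each of these ranges overlapped, and the log2 fold changes were -0.91 for Calcrl, -0.53 for Il33 and -0.72 for Ntn4. Cytl1, a secreted cytokine-like protein, Esco2, a cohesin acetyltransferase used in S phase, and Armcx4, an armadillo-repeat gene, stood at -2.14, -1.16 and -0.51.

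Promoters of these genes are shown for 3 members that differed between the groups without overlap, Trem2 and Lyl1 at higher levels and Cxcl14 at lower levels, so that the letters before each start can be read beside its values. The sequences are from RefSeq on build GRCr8, 250 bases before to 50 after each start, whereas the expression tables use other coordinates. Of the 12 higher genes 7 had a promoter in the RefSeq set, and of the 12 lower genes 10. Capitals mark GAGGAA or its reverse complement TTCCTC, a core read by PU.1 and other ETS factors of myeloid cells, in Trem2 and Lyl1, and TGACTCA or its reverse complement TGAGTCA, the AP-1 site, in Cxcl14.
Trem2, chr9:20151730-20152029, minus strand: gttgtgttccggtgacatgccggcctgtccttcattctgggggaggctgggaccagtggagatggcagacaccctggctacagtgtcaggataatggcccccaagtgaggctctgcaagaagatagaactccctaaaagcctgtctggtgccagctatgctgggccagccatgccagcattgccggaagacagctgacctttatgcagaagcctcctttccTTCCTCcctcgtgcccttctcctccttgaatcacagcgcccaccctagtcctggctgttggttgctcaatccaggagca
Lyl1, chr19:40359785-40360084, minus strand: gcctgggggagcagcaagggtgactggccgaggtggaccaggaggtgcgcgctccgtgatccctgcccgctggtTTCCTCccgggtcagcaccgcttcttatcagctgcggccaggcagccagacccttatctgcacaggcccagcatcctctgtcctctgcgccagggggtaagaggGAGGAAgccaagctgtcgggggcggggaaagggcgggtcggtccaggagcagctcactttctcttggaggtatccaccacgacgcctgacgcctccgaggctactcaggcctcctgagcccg
Cxcl14, chr17:8322900-8323199, plus strand: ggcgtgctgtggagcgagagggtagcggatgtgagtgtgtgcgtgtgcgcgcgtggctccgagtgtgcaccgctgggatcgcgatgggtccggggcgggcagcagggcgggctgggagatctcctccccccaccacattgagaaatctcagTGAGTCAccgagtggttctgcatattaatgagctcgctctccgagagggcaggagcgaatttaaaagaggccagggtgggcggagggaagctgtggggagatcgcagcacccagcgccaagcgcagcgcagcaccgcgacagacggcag
GAGGAA, on either strand, was present in 4 of the 7 higher promoters and 3 of the 10 lower promoters, and in 27.6% of all 33469 promoters of that length. TGACTCA was present in 0 of the 7 and 2 of the 10, and in 4.6% of all. A match is a description of these letters only.

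The gene lists describe groups of genes by their counts and medians, beside 3.92% higher, 3.54% lower and a median log2 fold change of 0.00 over all genes tested. With edgeR, 0 genes of any list passed the adjusted threshold. The lipid-associated macrophage program, lysosomal and lipid-handling genes of macrophages that include Trem2, had a median of 0.43, and 7 of its 19 genes were higher and 0 lower by unadjusted p. DESeq2 called 2 of the 19, Trem2 and Apoe. Apoe, the lipoprotein ligand secreted by macrophages, had 1356, 2750 and 2390 FPKM in AngII lungs and 1888, 2283 and 1970 FPKM in TRV023 lungs, against 899, 752 and 1788 FPKM in vehicle lungs and 1411, 1380 and 1053 FPKM in losartan lungs. Ang2_922 lay below 3 lungs without a peptide, so the Apoe groups overlapped, with a log2 fold change of 0.86 (SE 0.23).

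The macrophage marker list, which shares some of these genes, had 6 of 17 at an unadjusted p under 0.05 in the higher direction and 0 in the lower, with a median of 0.36. Its own medians were 0.41 for AngII and 0.30 for TRV023 over the same vehicle and losartan lungs. C1qa, the complement C1q chain that tissue macrophages make, had 284 to 491 FPKM with a peptide and 179 to 313 FPKM without. Fabp4, a fatty acid carrier on the same list, had 111 to 193 FPKM with a peptide and 71.0 to 144 FPKM without. The log2 fold changes were 0.58 for C1qa and 0.51 for Fabp4, with overlapping groups. The summed level of the list was 2983 to 3986 CPM with a peptide and 1703 to 3531 CPM without, so more macrophages and more transcript per macrophage cannot be told apart. Los_965 lay lowest, and without it 1 of 17 genes had an unadjusted p under 0.05, with the median at 0.27. Without Ang2_931 or Ang2_933 the count was 2, and without Trv_917, Trv_930, Veh_924 or Los_925 it was 3. It rose to 7 without Trv_918 and to 8 without Los_964. It was 1 without the AngII group or the vehicle group. The lipid-associated count was 5 without Ang2_922, Ang2_931, Ang2_933, Veh_924 or Los_965, 4 with the number series of the animals as a covariate, 11 without Los_964 and 12 without Trv_930.

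Mast cell markers also stood at higher values. Of 14 tested, 3 were at an unadjusted p under 0.05 in the higher direction and 0 in the lower, with a median of 0.40. The median was 0.55 for AngII and 0.10 for TRV023 over the same vehicle and losartan lungs. The tryptase Tpsb2 had 349, 259 and 226 FPKM in AngII lungs and 369, 294 and 332 FPKM in TRV023 lungs, against 166, 217 and 165 FPKM in vehicle lungs and 289, 152 and 124 FPKM in losartan lungs (log2 fold change 0.77, edgeR adjusted p = 0.264). Tpsab1, a second tryptase, had 182 to 320 FPKM with a peptide and 102 to 264 FPKM without. Los_925 was the only lung without a peptide inside the Tpsb2 range of the peptide lungs, and Los_925 and Veh_924 lay inside their Tpsab1 range. Without the 3 rats numbered 96x the mast cell median was -0.01, with 1 gene at an unadjusted p under 0.05, and without Los_925 the count was 7.

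**Figure D4:**
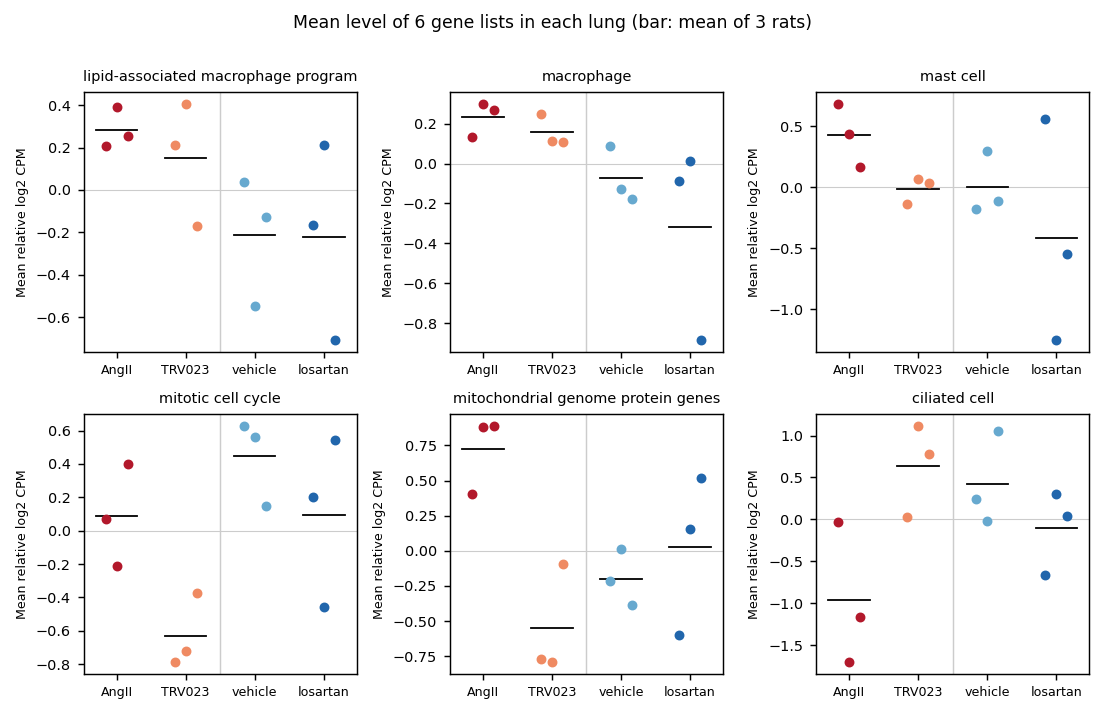
Mean log2 CPM of the genes of 6 lists in each of the 12 lungs, each gene taken relative to its own mean over the 12 (y axis), with a bar at the mean of 3 rats. The 6 peptide lungs lie between 0.11 and 0.30 for macrophage markers, above the other 6, which lie between -0.88 and 0.09, whereas for mitochondrial genome and ciliated cell genes the AngII and TRV023 lungs lie on opposite sides of 0, Ang2_922 and Trv_917 being close to 0 for ciliated cell genes.

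Genes of innate defense and stress gave counts that depended on single libraries or groups. Complement had 5 of 24 genes higher and 1 lower at an unadjusted p under 0.05 (median 0.24), with Cfd and C1qa of smallest p. The higher count was 3 without Ang2_931, Ang2_933, Trv_917, Trv_930 or Los_965, and 6 without Trv_918 or Veh_923. Without the 3 rats numbered 96x complement had 1 higher and 2 lower. Hemoglobin and iron clearance had 5 of 14 higher and 0 lower (median 0.27), a count that ran from 2 without Ang2_931 or Trv_930 to 8 without Los_964 and was 0 without the vehicle group. Its member Hp, the hemoglobin scavenger haptoglobin, had 38.2 to 74.3 FPKM with a peptide and 22.4 to 55.3 FPKM without, and Ftl1, the ferritin light chain, had 4091 to 5456 FPKM with a peptide and 3327 to 4874 FPKM without. The integrated stress response had 3 of 20 higher and 0 lower (median 0.16), with 5 higher without Trv_918, 5 higher and 1 lower without the rats numbered 96x, and 1 higher without the vehicle group. Its member Gdf15, a secreted stress cytokine, had 53.1, 60.1 and 56.5 FPKM in AngII lungs and 74.0, 67.2 and 51.3 FPKM in TRV023 lungs, against 39.0, 33.5 and 29.9 FPKM in vehicle lungs and 35.0, 53.2 and 42.2 FPKM in losartan lungs. Los_964 alone reached the peptide range of Gdf15 (log2 fold change 0.68, edgeR adjusted p = 0.364). Ddit3, the stress factor CHOP, stood at 0.56. Class I and II histocompatibility genes had 5 of 29 higher and 1 lower, RT1-CE16, with a median of 0.16, and RT1-CE5 stood at 0.71. The histocompatibility count was 3 higher without Veh_963 or the rats numbered 96x, 1 without the AngII or the vehicle group and 0 with the number series as a covariate. It was 7 higher without Los_925 or the losartan group.

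The receptor pathway itself showed little at the transcript level. Agtr1a, the main AT1R gene, had 24.2, 29.5 and 26.4 FPKM in AngII lungs and 35.1, 26.1 and 30.6 FPKM in TRV023 lungs, against 31.1, 34.7 and 35.1 FPKM in vehicle lungs and 24.0, 22.2 and 23.2 FPKM in losartan lungs. The pooled log2 fold change was 0.07 (95% interval -0.21 to 0.36), and the 3 losartan lungs lay below the 3 vehicle lungs. The β-arrestin gene Arrb2 had 38.6 to 53.3 FPKM with a peptide and 39.1 to 46.9 FPKM without (log2 fold change 0.23, 95% interval -0.01 to 0.48), and Arrb1 stood at -0.34 (95% interval -0.76 to 0.08). Adrbk1, the receptor kinase GRK2, stood at 0.08 (95% interval -0.12 to 0.29). Of the 11 arrestin and receptor kinase genes tested, 0 had an unadjusted p under 0.05.

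Of the 13 renin-angiotensin genes tested, Ctsg, the protease cathepsin G, was higher and Enpep, the aminopeptidase that trims angiotensin II, was lower at an unadjusted p under 0.05, with log2 fold changes of 1.39 and -0.48. Without the rats numbered 96x 0 of the 13 were at an unadjusted p under 0.05. Agtr2 was below the filter on low counts. Agtr1b and Ace were looked up by name only, and no gene under either name was listed in all 3 tables. Gene models under other names were not searched, so their expression is not known from this. Of the 22 genes of G protein and calcium signaling tested, 0 were higher and 4 lower at an unadjusted p under 0.05, with a median of -0.16. The lower count was 2 without Ang2_931 or Trv_930, 6 without Trv_918 or Veh_923, and 1 without the AngII or the vehicle group. Rock2 and Rock1, kinases that sustain contraction of smooth muscle, stood at -0.42 and -0.32. Of 32 ERK feedback and immediate early genes, 3 were higher and 0 lower, with Ier3 at 0.53 and the phosphatase Dusp2 at 0.40. The higher count was 1 without Ang2_931, Trv_930 or any vehicle library and 5 without Los_964, and without the vehicle group 1 was higher and 4 lower, with a median of -0.09.

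Vascular genes gave counts in both directions. Of 29 vasoactive pathway genes tested, 2 were higher and 4 lower at an unadjusted p under 0.05 (median -0.12). Without Ang2_931, Trv_917, Trv_930, Veh_963 or Los_925 the counts were 2 higher and 2 lower, without Los_965 1 and 2, and without the rats numbered 96x 4 and 3. Ednrb, the endothelin B receptor of endothelium, had 15.0, 8.56 and 12.4 FPKM in AngII lungs and 21.5, 22.3 and 20.6 FPKM in TRV023 lungs, against 22.7, 27.3 and 26.5 FPKM in vehicle lungs and 32.0, 29.0 and 24.9 FPKM in losartan lungs. All 6 peptide lungs were below the other 6, and the log2 fold change of -0.66 combined -1.06 for AngII with -0.35 for TRV023. Htr2b, the serotonin 2B receptor linked to pulmonary hypertension, had 4.55, 4.79 and 2.85 FPKM in AngII lungs and 5.29, 3.56 and 4.43 FPKM in TRV023 lungs, against 2.997, 2.05 and 2.65 FPKM in vehicle lungs and 3.23, 2.21 and 1.04 FPKM in losartan lungs. Ang2_933 lay below Veh_923 and Los_925 in these FPKM, although the TMM-scaled levels did not overlap, and the log2 fold change was 0.90. Of 20 endothelial markers, 0 were higher and 3 lower (median -0.16), or 2 and 2 without the losartan group (median 0.02), with Cdh5, the VE-cadherin gene, at 47.0 to 90.3 FPKM with a peptide and 81.3 to 119 FPKM without. Of 21 metalloproteinase and inhibitor genes, 0 were higher and 3 lower, with Reck at -0.35 and Mmp15 at -0.37, although 13 of the 21 had a log2 fold change above 0 and the median was 0.14. Without the rats numbered 96x 3 were higher and 1 lower. Mmp2 and its inhibitor Timp1 stood at 0.30 (95% interval -0.14 to 0.73) and 0.24 (95% interval -0.40 to 0.87).

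Genes of cell division stood at lower values in the pooled comparison, unevenly between the peptides. Of 67 mitotic genes tested, 0 were higher and 21 lower at an unadjusted p under 0.05, with a median of -0.46. The median was -0.19 for AngII and -0.93 for TRV023 over the same vehicle and losartan lungs, and between the peptides 34 of the 67 were higher with AngII and 1 lower at an unadjusted p under 0.05, against 5.43% of all genes tested in each direction. Spc25, a kinetochore subunit, had 1.66, 2.09 and 4.17 FPKM in AngII lungs and 1.78, 1.99 and 3.27 FPKM in TRV023 lungs, against 5.48, 7.12 and 4.89 FPKM in vehicle lungs and 5.12, 3.20 and 7.25 FPKM in losartan lungs. Kif20b, a kinesin of cytokinesis, stood at -0.95, and Mki67, the proliferation marker Ki-67, at -0.31 (95% interval -0.81 to 0.20). The mitotic count was 36 without Ang2_933, 35 without Los_964, 15 without Trv_918 or Los_965 and 14 without Trv_917. It was 5 without the TRV023 group and 55 without the AngII group. The DNA replication list, 46 genes, had 1 higher (Pold2) and 2 lower (Pola1 among them), with a median of -0.13. Its lower count was 7 without Ang2_933, 5 without Los_964, 0 without Trv_917 or Veh_924 and 10 without the AngII group.

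**Figure D5:**
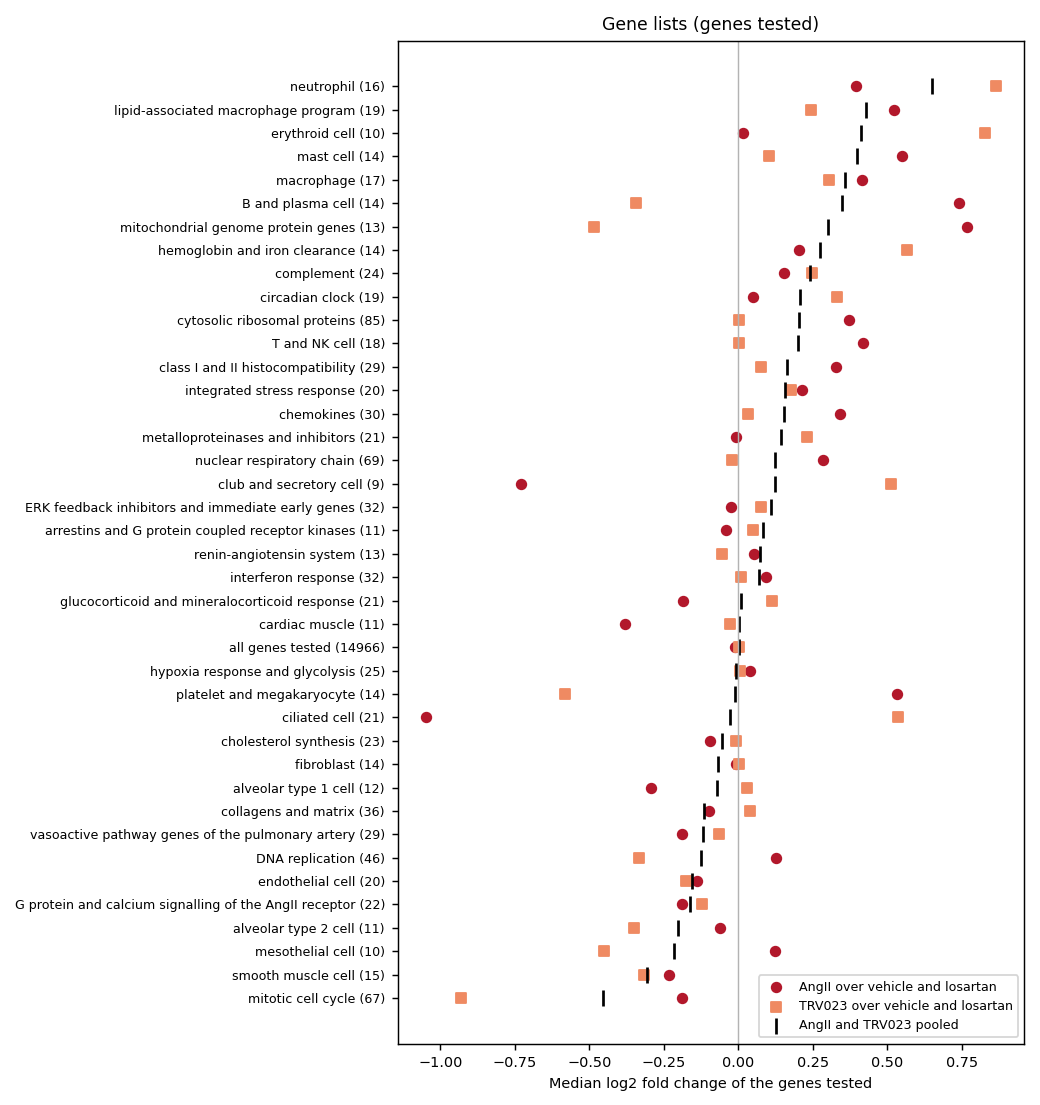
Median log2 fold change (x axis) of each of 39 gene lists and of all genes tested (y axis, number of genes tested in brackets), for AngII over vehicle and losartan (circles), TRV023 over vehicle and losartan (squares) and both pooled (bars). Macrophage lists have both peptides above 0, the mitotic list has both below 0, and ciliated cell, club cell, mitochondrial genome, platelet and B cell lists have the peptides on opposite sides of 0.

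The 2 peptides were not alike in every gene, which bears on any pooled value. With edgeR 0 genes differed between AngII and TRV023 at an adjusted p under 0.05 (smallest 0.0691). By unadjusted p, 1701 of 15662 were under 0.05, 5.43% in each direction, whereas DESeq2 called 217. For losartan against vehicle edgeR called 0 and DESeq2 called 1, and 321 genes had an unadjusted p under 0.05. AngII against vehicle and losartan gave 2 calls, RGD1561306 and Ltb, and TRV023 gave 1, RGD1561306. With 1 library left out, the Ltb call held only without a TRV023 lung, Veh_963 or Los_964. Ltb, the lymphotoxin beta gene of lymphocytes, had 44.0, 49.3 and 38.8 FPKM in AngII lungs, against 19.5, 24.2 and 26.2 FPKM in TRV023 lungs, with 19.4 to 29.0 FPKM in vehicle and losartan lungs. Lrrc23, a gene of sperm and cilia, had 0.0721, 0 and 0 FPKM in AngII lungs, against 2.48, 10.4 and 4.68 FPKM in TRV023 lungs, with 0.0786 to 0.416 FPKM in vehicle and losartan lungs. Igfbp5, Npw, Gp2 and Fam179a followed, with AngII minus TRV023 log2 fold changes of -1.04, 1.80, -4.77 and -2.52, and none passed the threshold.

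Cell type lists took different values with the 2 peptides as well. Ciliated cell genes had a median of -1.05 for AngII and 0.53 for TRV023, and 0 of 21 were at an unadjusted p under 0.05 in the pooled comparison, where Tppp3 and Ccdc39 had the smallest p. Between the peptides, 18 of the 21 were lower with AngII at an unadjusted p under 0.05, against 5.43% of all genes tested. All 13 protein genes of the mitochondrial genome tested, Mt-co2 and ND3 among them, were higher with AngII than with TRV023 at an unadjusted p under 0.05, and 0 of 13 in the pooled comparison. The mitochondrial genome took 9.63, 12.1 and 12.3% of counts in AngII lungs and 4.36, 4.58 and 7.07% in TRV023 lungs, against 6.52, 7.55 and 5.65% in vehicle lungs and 5.11, 7.37 and 10.02% in losartan lungs. The pooled means were 8.35% with a peptide and 7.04% without (exact two-sided permutation p = 0.437). The part of this share in other values was not tested.

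Libraries held 16106337 to 20096877 counted reads, of which the joined genes took 99.978 to 99.994%. Lung identity was clear in each library, with Sftpc, the surfactant protein C of alveolar type 2 cells, at 5224 FPKM or more. Smooth and cardiac muscle genes stood apart in Veh_963, where Actc1, the cardiac actin, reached 283 FPKM, against 2.92 to 35.5 FPKM in peptide lungs and 19.9 to 37.2 FPKM in the other 5 lungs without a peptide. Arpp19 differed by vehicle rather than by peptide, with 0.684 to 1.89 FPKM in peptide lungs, against 5.76, 10.4 and 13.8 FPKM in vehicle lungs and 1.34, 2.57 and 1.21 FPKM in losartan lungs.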

How the data were processed

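Lung RNA of 12 MCT rats in 4 groups of 3 was sequenced by a company. The authors deposited raw read counts per Ensembl gene, and FPKM that the authors computed from gene length and library size, in 3 tables that each held a drug group and the vehicle group. A gene without a read in the drug group is missing from that drug's table, so genes silent under any drug were left out of the join. The sources used here do not give the aligner, counter, build or annotation. The tables' own fold changes and p-values, and the subset tables selected with them, were not used.

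Counts of the 16957 shared genes were tested with edgeR 4.0.16 in R 4.3.3 (filterByExpr, TMM, glmQLFit, glmQLFTest), with Benjamini-Hochberg adjustment over all genes tested. A fit with 4 group means gave AngII against TRV023, losartan against vehicle, and each peptide against vehicle and losartan. Intervals are 95%. DESeq2 1.42.0, limma 3.58.1, other scalings, filters and designs, and groups or libraries left out were the alternatives. The fits were tested on simulated data. Single values were compared by exact permutation. Tables and figures used Python 3.11.15, pandas 2.3.3, numpy 2.4.6 and matplotlib 3.10.9.

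Genes were named by rule. They were the 12 of smallest p in each direction, the 2 members of smallest p of each list described and 21 fixed genes. The 6 genes of smallest p between AngII and TRV023 were added, so their differences were selected. The 12 and the 6 needed a mean of at least 1 FPKM in either set of lungs. Names made of a clone, LOC or RGD number were left out of both. Lists numbered 39, of which 16 mark cell types. Members, lists and genes were chosen with earlier results of these data known. In all, 301 gene models share their name with another gene model, and list counts are of gene models. Strand use in counting is not given, so reads of overlapping genes cannot be told apart. Libraries held 16106337 to 20096877 counted reads. Promoters are from RefSeq (GRCr8). Results of 2 genes that the rule names are not reported here.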

Additional observations from a re-analysis of the deposited data

Results flagged for a closer look

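Named genes were checked for a lung far from the other 5 of its set. The cutoff flags about 5% of sets of independent normal values. FPKM pooled over 2 treatments need not be such values, so the share flagged cannot be read as an excess. Among 170 checks, 14 stood out (8.2%). In peptide lungs these were Trem2 at 129 FPKM in Ang2_931, Hp at 74.3 FPKM in Trv_930, Enpep at 14.3 FPKM and Adrbk1 at 66.8 FPKM in Trv_918, and, as lowest values, RT1-CE5 at 141 FPKM in Trv_918 and Pou2af1, a B cell co-activator, at 1.57 FPKM in Trv_917. In lungs without a peptide, Veh_963 was highest for Retn at 1.91 FPKM, Fam179a at 2.23 FPKM and the muscle genes Actc1 at 283 FPKM, Casq2 at 6.59 FPKM, Synpo2 at 14.6 FPKM and Lmod1 at 48.2 FPKM. Los_965 was highest for ND3 at 2560 FPKM and lowest for Arntl, the clock factor BMAL1, at 9.58 FPKM.

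Lrrc23 was flagged for opposite directions with the peptides. Every AngII lung lay below, and every TRV023 lung above, the range of the 6 vehicle and losartan lungs. The AngII levels and the low end of that range were both at the floor of detection, so a fall with AngII cannot be resolved. The AngII minus TRV023 log2 fold change was -7.52 with an edgeR adjusted p of 0.0691, a fitted value that depends on the prior count because 2 of the 3 AngII lungs had 0 reads.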

How the results depend on the processing

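No paired analysis was possible because the groups share no animal numbers. In the pooled comparison DESeq2 called 31 genes higher and 20 lower. Counts with groups or libraries left out, or with the number series as a covariate, are from edgeR, and DESeq2 was not rerun for them. The edgeR higher count was 2 without the AngII group (Lrrc23 and RGD1561306), 0 without the TRV023 group and 0 without the vehicle group. The edgeR lower count was 3 without the animals numbered 96x (Btbd3, Cxcl14 and Scn7a, the first and last named after their values were seen). It was 1 with the number series as a covariate (Cxcl14) and 1 without the losartan group (RT1-CE16). With 1 library left out in turn, the higher count stayed at 1 and the lower ran from 0 to 1 (RT1-CE16 without Los_925 or Los_965). AngII against TRV023 gave 217 calls with DESeq2 on all libraries, and 0 to 1 with edgeR and a library left out (H3f3c without Veh_963). Losartan against vehicle gave 1 call with DESeq2 on all libraries, and 0 to 1 with edgeR and a library left out (RT1-CE16 without Los_964). In alternatives chosen after seeing the data, AngII alone gave 0 to 5 calls and TRV023 alone 0 to 4 with a library left out, both highest without Los_964. For 84 genes, 2277 of 2343 alternative values kept direction and side of the threshold, 33 newly passed it, 2 lost it and 31 changed sign. The log2 fold changes that changed sign were, without the TRV023 group, Lrrc23 -3.09, Gp2 -2.77, Npw 0.29 and Fam179a -1.75. Without the AngII group they were Ltb -0.034, Mt-co2 -0.36, ND3 -0.37, Igfbp5 0.17 and Ccdc39 0.048. Without the vehicle group they were Ccdc39 0.023 and Adrbk1 -0.012, and without the losartan group Agtr1a -0.15 and Fam179a -0.33. Without the animals numbered 96x they were Lmod1 0.017, Casq2 0.31 and Timp1 -0.013, and with the number series as a covariate Lmod1 0.021, Casq2 0.32 and Timp1 -0.0048. Gp2 and Fam179a were at -0.10 and -0.36 with limma-voom and at -0.36 and -0.42 with 4 group means, and Fam179a at -0.11 with limma on log2(FPKM + 1). With a library left out, Casq2 ran from -1.15 to 0.00078 and Fam179a from -0.36 to 0.29. The cause of these changes was not tested. Scaling by library totals shifted the median of all genes by -0.05.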

Other observations

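Several lists without a place above are given as values. Neutrophil markers had 1 of 16 genes higher at an unadjusted p under 0.05 and a median log2 fold change of 0.65, with Elane at 1.47 and Np4 at 1.77. Without Los_964, 8 of the 16 were higher and the median was 1.09, without Trv_917 4, without Veh_963 3, without Veh_924 2, and without Ang2_933, Trv_930 or Los_965 0. Ribosomal protein genes had 2 of 85 higher and 1 lower, with a median of 0.20, which was 0.37 for AngII and 0.00 for TRV023. The higher count was 23 without Trv_918, 14 without Los_964, 38 without the TRV023 group, 0 without the AngII group, 46 without the rats numbered 96x (median 0.41) and 50 with the number series as a covariate. Among alveolar type 2 cell markers, 0 of 11 were higher and 2 lower, Slc34a2 at -0.63 and Lamp3 at -0.43, and 0 were lower without the TRV023 group. Among circadian clock genes, 1 of 19 was higher, Dbp at 1.21, and 1 lower, Arntl at -0.63. Without the rats numbered 96x 9 clock genes were higher and 0 lower (median 0.55), and without Ang2_922 3 were higher and 3 lower. None of these genes passed the edgeR adjusted threshold, and 0 of them were called by DESeq2.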
